A study of Mus musculus with 10 samples.

Results

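The ATP-binding cassette (ABC) exporters of hepatocytes were followed through 10 genes, of the 19505 named genes on the array. They were picked by gene symbol and split by the membrane that holds the protein. Abcc3, Abcc4 and Abcc6 belong to the basolateral membrane, which faces the blood, and Abcc2, Abcb11, Abcb4, Abcb1a, Abcg2, Abcg5 and Abcg8 to the canalicular membrane, which faces the bile. Each gene had 1 probe set on the array. Liver RNA came from male C57BL/6N mice, 8 weeks old at purchase, with 1 mouse per Clariom S Mouse Array. In the iso-α-acids diet group (n = 5), the mice ate the AIN-93G diet with 0.5% (w/w) of iso-α-acids, the hop-derived bitter acids of beer, for 1 week. In the control diet group (n = 5), they were pair-fed the plain AIN-93G diet. All 10 mice, controls included, then received acetaldehyde i.p. at 200 mg/kg, and livers were collected 5 h later, so that every difference below is between diets after acetaldehyde and no untreated liver was compared. The authors picked these mice from larger groups as representative by serum enzyme values, so they were not a random draw.

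ABC exporters use ATP to push substrates out of the cell against a gradient. In hepatocytes the canalicular members build bile: they carry bile salts, phospholipid, sterols and conjugated drugs into the canaliculus. The basolateral members return conjugates and bile salts to the blood, and are best known as an overflow route when bile formation is blocked or when foreign compounds activate nuclear receptors or the transcription factor Nrf2.

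All values are log2 levels that the authors had normalized, with a range of 4.94 to 13.37 over the array. The authors' summary method left 89.0% of the probe sets almost constant over the 10 mice (SD under 0.001), and for such probe sets neither a change nor its absence can be read. Among the 10 exporters, none was absent or of this kind. The other 2439 probe sets are called varying below. Albumin (Alb), the defining secreted protein of hepatocytes, was itself flat at a high level, and the biliary markers Krt7, Krt19 and Epcam were flat as well. Iso-α-acids replicate 1 stood apart from its group: its root mean square difference from replicates 2 to 5 over varying probe sets was 0.624 to 0.646, against 0.129 to 0.169 among those 4 and 0.175 to 0.365 among the 5 control mice. Where leaving this mouse out moved a named difference by over 1.5 times, the value without it is given too. The tissue was whole liver, so fewer cells of a type and less RNA per cell cannot be told apart.

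By limma, with a Benjamini-Hochberg adjusted p under 0.05 over all 22206 probe sets, 2 of the 10 exporters rose in iso-α-acids mice, Abcc3 and Abcc2, none fell and 8 did not pass. Over all probe sets 0.590% were called higher and 0.171% lower by this test, and among varying probe sets the shares were 5.13% and 1.07%. Quantile normalization applied again changed the split over all probe sets to 123 higher and 71 lower, against 131 and 38 as deposited. With no adjustment, 3 exporters were higher and 2 lower at a p under 0.05, as were 22.6% and 14.6% of varying probe sets. In 3 of the 10, Abcc3, Abcc4 and Abcc2, the lowest of the iso-α-acids mice was higher than the highest control mouse, as was the case for 12.1% of varying probe sets. The difference was positive for 7 of the 10 exporters and for 53.6% of varying probe sets. The median log2 difference was 0.18 over the 3 basolateral exporters and 0.11 over the 7 canalicular ones, and 0.0073 over varying probe sets. Rank products, the test that the study's methods name, called 6 exporters higher and 3 lower at a false discovery rate (FDR) under 0.05, where it called 33.5% of varying probe sets higher and 28.4% lower. Abcc4 was a further call in the fit to varying probe sets alone, which called 13.4% of them higher, and in the fit without iso-α-acids replicate 1, which called 13.0% of them higher.

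Markers of other cells were set beside these values. Of 6 markers of Kupffer cells, the resident macrophages of the liver, Clec4f, Cd5l, Vsig4 and Adgre1 varied, Marco and Timd4 were flat, and the mean level of the 6 was 7.50 to 7.73 in iso-α-acids mice and 7.79 to 8.13 in control mice, without overlap. By limma over all probe sets 0 of the 6 passed. When p was not adjusted 4 were lower, as were 14.6% of varying probe sets. Rank products called 4 lower, against 28.4% of varying probe sets. Limma fitted to varying probe sets alone also called 4 lower, against 6.89% of them. Over all probe sets Clec4f had the lowest adjusted p, with a difference of -0.66 (limma adjusted p = 0.0683). The mean level of 8 hepatocyte markers was 12.79 to 12.90 in iso-α-acids mice and 12.83 to 12.88 in control mice. Those of 5 cholangiocyte and 6 stellate cell markers overlapped between the groups too. That of 6 sinusoidal endothelial markers overlapped through replicate 1 alone, which was at 8.55, while iso-α-acids replicates 2 to 5 were at 8.403 to 8.495 and control mice at 8.519 to 8.545. The 5 leukocyte markers measured were flat. Of 4 erythroid markers 1 was measured, Alas2, the first enzyme of haem synthesis in red cell precursors, at 7.45 to 9.41 in iso-α-acids mice and 9.47 to 9.85 in control mice, without overlap (difference -0.68, SE 0.38, limma adjusted p = 0.639). Replicate 1 was the lowest for Alas2, and without it the difference was -0.30 (SE 0.081, limma adjusted p = 0.152). Whether the share of any cell type had a part in the exporter differences was not tested.

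**Figure D1:**
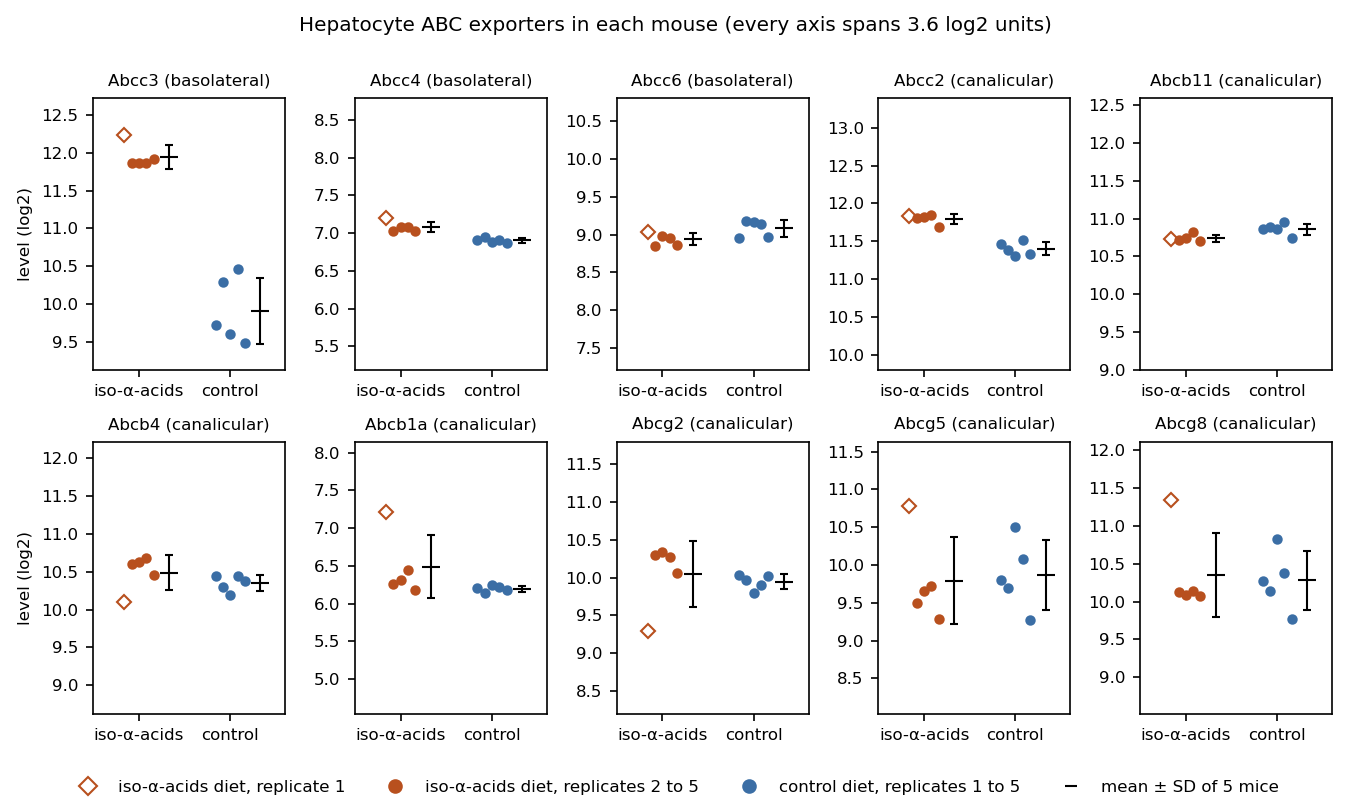
Log2 level of each exporter gene (vertical axis, of equal length in every panel) in iso-α-acids mice (left, orange) and control mice (right, blue), with the mean ± SD of 5 mice in black and iso-α-acids replicate 1 as an open diamond. Abcc3, Abcc4 and Abcc2 do not overlap between diets, with Abcc3 at 11.86 to 12.23 in iso-α-acids mice against 9.48 to 10.46 in control mice, and replicate 1 lies away from its group for Abcb1a, Abcg2, Abcg5 and Abcg8.

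Abcc3, the basolateral exporter of glucuronide conjugates and bile salts, had the largest diet difference of the 10 exporters. It was at 12.23, 11.87, 11.86, 11.87 and 11.92 in iso-α-acids replicates 1 to 5, and at 9.73, 10.29, 9.60, 10.46 and 9.48 in control replicates 1 to 5. All 5 mice on the iso-α-acids diet lay more than a log2 unit above the highest control mouse. The mean was 11.95 ± 0.16 in iso-α-acids mice and 9.91 ± 0.43 in control mice (SD, n = 5 each), a 4.11-fold difference (log2 difference 2.04, standard error (SE) 0.20, limma adjusted p = 0.00353). The control mice spread over 0.97 log2 units and iso-α-acids replicates 2 to 5 over 0.056, a contrast in spread that was not tested. Without replicate 1, the fold difference was 3.91 (limma adjusted p = 0.00525).

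Abcc4, which exports cyclic nucleotides and, with glutathione, bile salts across the basolateral membrane, differed in the same direction by a much smaller amount. Its levels were 7.20, 7.03, 7.08, 7.08 and 7.02 in iso-α-acids mice, against 6.90, 6.95, 6.88, 6.92 and 6.87 in control mice. The groups did not overlap, and iso-α-acids replicate 1 was the highest of the 10 mice. The log2 difference was 0.18 (SE 0.033, 1.13-fold), which did not pass (limma adjusted p = 0.0677). An exact two-sided permutation test of this gene alone gave p = 0.00794, the smallest p that 5 against 5 mice can give. Any gene whose groups do not overlap gets this p, so it restates the separation, which 19.4% of varying probe sets shared in either direction. Rank products called Abcc4 higher (FDR 0.00657). Without replicate 1 the log2 difference was 0.15 and passed (limma adjusted p = 0.0121), as it did when limma was fitted to varying probe sets alone (adjusted p = 0.00913). It did not pass when any other mouse was left out instead (limma adjusted p up to 0.172).

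Abcc6, a basolateral transporter needed for the release of ATP from hepatocytes and for the plasma inhibitor of calcification that derives from it, had the opposite sign. It was at 9.04, 8.85, 8.99, 8.96 and 8.87 in iso-α-acids mice and at 8.96, 9.18, 9.17, 9.15 and 8.97 in control mice. The groups overlapped, since 3 of the 5 mice on the iso-α-acids diet lay above the lowest control mouse. The log2 difference of -0.14 (SE 0.060) did not pass (limma adjusted p = 0.479), although rank products called it lower (FDR 0.0210). The 3 basolateral exporters therefore had differences of 2.04, 0.18 and -0.14, of which the first passed.

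**Figure D2:**
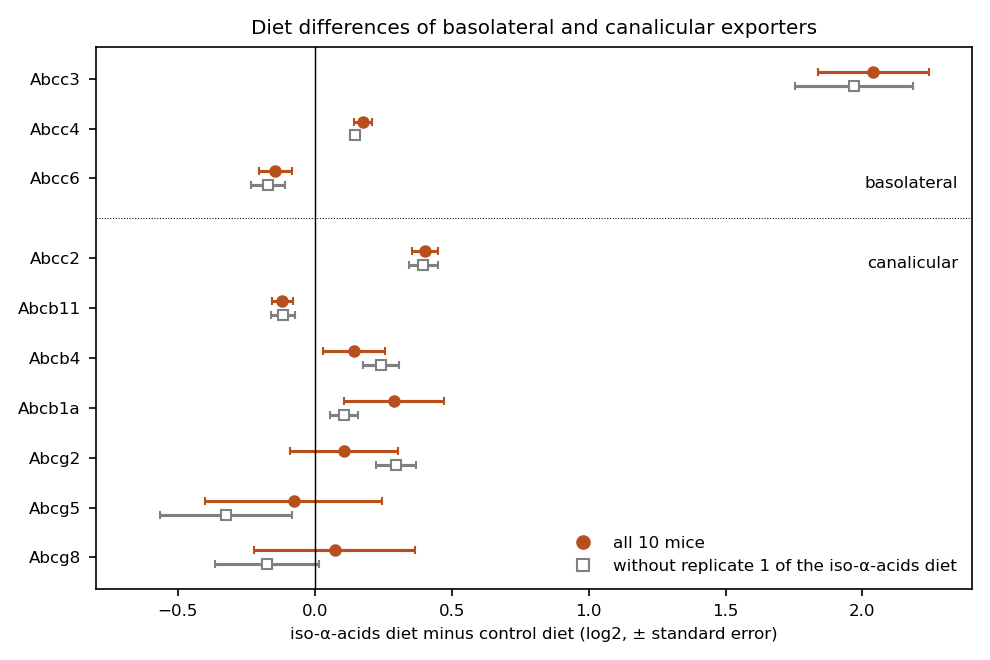
Log2 difference between the iso-α-acids diet and the control diet (horizontal axis, ± standard error from limma) for the basolateral exporters above the dotted line and the canalicular ones under it, with all 10 mice (filled circles) and without iso-α-acids replicate 1 (open squares). Abcc3 at 2.04 stands far to the right of the other 9, and the open squares move most for Abcg5, Abcg8, Abcg2 and Abcb1a.

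Abcc2, the canalicular exporter of glutathione and of glutathione and glucuronide conjugates such as bilirubin diglucuronide, was the canalicular gene that rose. Its levels were 11.83, 11.81, 11.82, 11.85 and 11.69 in iso-α-acids mice and 11.46, 11.38, 11.31, 11.51 and 11.33 in control mice. The groups were separate, with replicate 5 the lowest mouse on the iso-α-acids diet. The mean was 11.80 ± 0.065 in iso-α-acids mice and 11.40 ± 0.087 in control mice (SD, n = 5 each), a 1.32-fold difference (log2 difference 0.40, SE 0.048, limma adjusted p = 0.00950). Unlike several other canalicular genes, it had nearly the same difference without iso-α-acids replicate 1, 0.40 (limma adjusted p = 0.0123).

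Promoter sequences were read for the exporters from RefSeq (build GRCm38.p6), where 8 of the 10 genes matched with 12 windows of 250 bases before and 50 bases after a transcription start. Abcc3 and Abcc6 were not matched. Abcc2 and Abcc4 are shown because their groups did not overlap, and Abcb11, which had the opposite sign, is shown beside them. Each run holds the 250 bases before the start, on the strand of the gene: Abcc2 at chr19:43782058-43782307 (+ strand), Abcc4 at chr14:118706220-118706469 (- strand, the first of its 2 windows) and Abcb11 at chr2:69342617-69342866 (- strand). Capitals mark matches, on either strand, to the core of the antioxidant response element bound by Nrf2 (TGACNNNGC) and to the hexamer recognised by many nuclear receptors (AGGTCA, whose reverse complement TGACCT can share its first bases with the antioxidant response core).
Abcc2: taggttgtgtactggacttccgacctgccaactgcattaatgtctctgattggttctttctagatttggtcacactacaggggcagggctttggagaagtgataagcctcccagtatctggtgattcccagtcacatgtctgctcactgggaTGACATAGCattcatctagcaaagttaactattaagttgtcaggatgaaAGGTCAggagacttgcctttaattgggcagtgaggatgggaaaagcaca
Abcc4: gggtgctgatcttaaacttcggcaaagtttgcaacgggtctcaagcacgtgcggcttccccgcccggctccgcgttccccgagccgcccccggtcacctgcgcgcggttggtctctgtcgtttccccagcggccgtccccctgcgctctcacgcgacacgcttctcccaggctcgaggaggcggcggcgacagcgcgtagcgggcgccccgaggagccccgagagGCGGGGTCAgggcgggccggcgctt
Abcb11: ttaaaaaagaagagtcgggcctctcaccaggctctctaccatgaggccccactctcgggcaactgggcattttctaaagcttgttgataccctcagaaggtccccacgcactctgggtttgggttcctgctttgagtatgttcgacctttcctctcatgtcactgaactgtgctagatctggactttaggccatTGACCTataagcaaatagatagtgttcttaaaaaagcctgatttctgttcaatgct
The antioxidant response core was found in Abcc2 at positions -98 to -90, counted back from the start, and in Abcc4 at -25 to -17 and, in its other window, at -23 to -15. Abcb1a held a match after its start. Of the 12 exporter windows 4 held this motif, against 12.4% of all 32851 windows. These belonged to 3 of the 8 matched genes, since both windows of Abcc4 held it. The hexamer lay at -49 to -44 in Abcc2 and at -56 to -51 in Abcb11, and Abcg2 held it too. It was in 4 of the 12 exporter windows, from 3 genes, against 16.3% of all windows. Whether exporter windows differed from these shares was not tested. Hexamer repeats, searched on both strands as direct repeats spaced by 1 or 4 bases and as an inverted repeat spaced by 1 base, were in 0 of the 12 windows and in 0.0396%, 0.0152% and 0.00913% of all windows. These are matches of letters, and binding was not measured.

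Abcb11, the bile salt export pump that drives bile flow, had slightly lower levels on the iso-α-acids diet. It was at 10.73, 10.72, 10.74, 10.82 and 10.70 in iso-α-acids mice and at 10.86, 10.88, 10.86, 10.95 and 10.74 in control mice. Of the 5 mice on the iso-α-acids diet, 4 lay below every control mouse, and replicate 4 lay above control replicate 5. The log2 difference was -0.12 (SE 0.038), which did not pass (limma adjusted p = 0.312), and rank products called it lower (FDR 0.00636). Iso-α-acids replicate 1 was within 0.01 of the mean of replicates 2 to 5 for this gene.

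Abcb4 flips phosphatidylcholine into the canaliculus. Abcb1a, of the same sequence family and on the same chromosome, encodes a P-glycoprotein that expels lipophilic drugs. Abcb4 was at 10.10, 10.61, 10.62, 10.68 and 10.45 in iso-α-acids mice, against 10.44, 10.29, 10.20, 10.44 and 10.37 in control mice. Replicate 1 was the lowest of the 10 mice and the other 4 were above every control mouse. The difference of 0.14 (SE 0.11) did not pass (limma adjusted p = 0.772), and neither did that without replicate 1, 0.24 (SE 0.067, limma adjusted p = 0.161). Rank products called Abcb4 higher (FDR 0.0231).

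Abcb1a was at 7.21, 6.27, 6.32, 6.45 and 6.19 in iso-α-acids mice and at 6.21, 6.14, 6.24, 6.22 and 6.18 in control mice. Here replicate 1 was the highest mouse, by 0.91 above the mean of replicates 2 to 5, and the 5 control mice spread over 0.103. The log2 difference of 0.29 (SE 0.18) did not pass (limma adjusted p = 0.694) and was 0.11 (SE 0.052) without replicate 1. Rank products called Abcb1a higher (FDR 0.0162). Across the 10 mice Abcb1a and Abcb4 gave Pearson's r of -0.41 (permutation p = 0.296, adjusted p = 0.296) and Spearman's rho of 0.22 (permutation p = 0.538, adjusted p = 0.538). Without the 2 mice farthest from the median of Abcb1a, iso-α-acids replicates 1 and 4, r was 0.62, and without replicate 1 alone it was 0.73 (n = 9), so that the negative sign rested on that mouse.

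Abcg2, which expels sulphated conjugates, urate and porphyrins, had 1 mouse far below the others. Its levels were 9.29, 10.30, 10.34, 10.27 and 10.06 in iso-α-acids mice and 10.03, 9.98, 9.80, 9.90 and 10.02 in control mice. Replicate 1 lay 0.95 below the mean of the other 4, all of which were above every control mouse. The log2 difference of 0.11 (SE 0.20, limma adjusted p = 0.929) became 0.30 (SE 0.073, limma adjusted p = 0.112) without replicate 1, and neither passed. Rank products called Abcg2 higher (FDR 0.0157).

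Abcg5 and Abcg8 encode the subunits of one sterol exporter, which secretes cholesterol and plant sterols into bile. Abcg5 was at 10.78, 9.50, 9.65, 9.73 and 9.29 in iso-α-acids mice and at 9.80, 9.69, 10.50, 10.08 and 9.27 in control mice. Abcg8 was at 11.34, 10.12, 10.08, 10.15 and 10.07 in iso-α-acids mice and at 10.28, 10.14, 10.84, 10.38 and 9.77 in control mice. For both genes the highest mouse was iso-α-acids replicate 1, the next was control replicate 3 and the lowest was control replicate 5.

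The diet differences of the sterol exporter did not pass limma's test, at -0.08 (SE 0.32, adjusted p = 0.974) for Abcg5 and 0.07 (SE 0.29, adjusted p = 0.973) for Abcg8, with standard errors well above those of Abcc2 or Abcb11. Their signs are not settled: without iso-α-acids replicate 1 the differences were -0.325 and -0.17, and without control replicate 3 they were 0.08 and 0.21. Rank products called Abcg5 lower (FDR 0.0206) and did not call Abcg8. The levels of both genes went together over the 10 mice, with a Pearson's r of 0.96 and a Spearman's rho of 0.99 (permutation p = 6e-05 for each, adjusted p = 0.00012 over the 2 gene pairs examined). The relation held without iso-α-acids replicate 1 and control replicate 3, the 2 mice farthest from the median of Abcg5 (r = 0.87, n = 8). It was 0.97 after the mean of each diet group was subtracted, and groups of 5 mice were too small for values of their own.

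**Figure D3:**
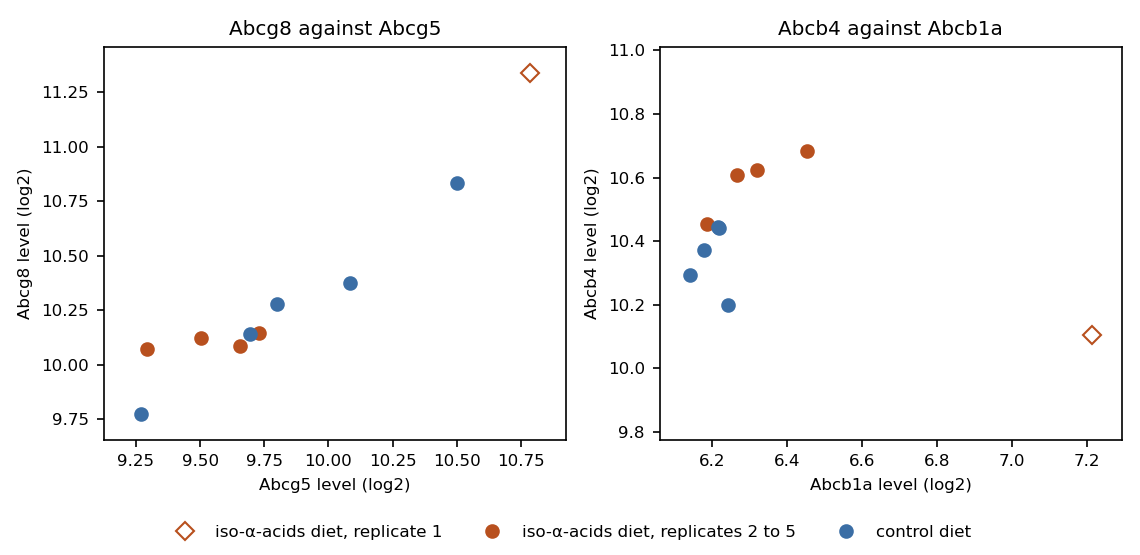
Log2 level of Abcg8 against Abcg5 (left) and of Abcb4 against Abcb1a (right) in each of the 10 mice, orange for the iso-α-acids diet with replicate 1 as an open diamond, and blue for the control diet; control replicates 1 and 4 nearly coincide in the right panel. The Abcg5 and Abcg8 points rise together (r = 0.96), and replicate 1 lies apart from the other 9 mice in the right panel.

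The sterol exporter genes point away from each other on chromosome 17, and their RefSeq start sites are separated by 109 bases, so that this one stretch lies directly before both. It is printed because these 2 genes were the pair that moved together. The run covers chr17:84683012-84683120 (GRCm38.p6, + strand, the strand of Abcg8) and has in capitals both matches to AGATAA, a site of GATA factors, which here read TTATCT.
Abcg5/Abcg8: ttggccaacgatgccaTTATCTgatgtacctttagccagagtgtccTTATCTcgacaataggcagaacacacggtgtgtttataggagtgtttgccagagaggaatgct
Counted from the Abcg8 start these matches lay at -93 to -88 and -63 to -58, and counted from the Abcg5 start at -22 to -17 and -52 to -47. The motif was searched on both strands and was in 11.2% of all promoter windows.

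Changes in a pair of exporters can be set against each other within each mouse. Of 3 such pairs, chosen after the values had been seen and so given as a description with no test, the log2 ratio of Abcc3 to Abcc2 was higher on the iso-α-acids diet than on the control diet by 1.64 (SE 0.19), the basolateral exporter having the larger difference. The ratio of Abcc4 to Abcc2 differed by -0.23 (SE 0.046), so that these 2 basolateral genes differed from Abcc2 in opposite directions. The ratio of Abcc2 to Abcb11 was higher by 0.52 (SE 0.035). In each case all 5 iso-α-acids mice lay on one side of all 5 control mice. Since the pairs were chosen with the values known, this separation adds no support to the differences of the single genes. Without iso-α-acids replicate 1 the differences were 1.57, -0.25 and 0.51.

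Of 41 other ABC transporter genes measured, 9 varied and 32 were flat. By limma 1 rose, Abcd2, a peroxisomal transporter of very-long-chain fatty acyl-CoA, and 40 gave no call in either direction. Rank products called 3 higher and 4 lower, where it called 33.5% and 28.4% of varying probe sets. Abcd2 was at 8.66, 8.52, 8.15, 8.79 and 8.22 in iso-α-acids mice, against 6.74, 6.72, 6.98, 6.69 and 6.49 in control mice. Its groups were far apart, with a 3.35-fold difference (log2 difference 1.74, SE 0.14, limma adjusted p = 0.00140). Abcd3, which carries fatty acids and bile acid precursors into peroxisomes, had a difference of 0.49 (SE 0.30, limma adjusted p = 0.683), with replicate 1 below every control mouse and the other 4 above. Without replicate 1 it was 0.76 (SE 0.17, limma adjusted p = 0.0876). Abcd3 was named after its values had been seen. The second mouse P-glycoprotein gene, Abcb1b, and the basolateral exporters Abcc1 and Abcc5 were flat. The median log2 difference of the 9 varying genes was -0.07.

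Among 11 solute carriers of bile acids, organic anions and cations, 8 varied and limma called 0. Before adjustment, 1 was higher and 1 lower at a p under 0.05, against 22.6% and 14.6% of varying probe sets. Rank products called 2 higher and 5 lower, against 33.5% and 28.4% of varying probe sets. Slco1a4, a basolateral organic anion uptake carrier, was at 10.02, 7.96, 8.19, 8.55 and 7.92 in iso-α-acids mice and at 7.15, 6.83, 7.13, 6.94 and 6.76 in control mice. The groups did not overlap, with a log2 difference of 1.56 (SE 0.39, limma adjusted p = 0.168), and without the high replicate 1 it was 1.19 and passed (SE 0.15, adjusted p = 0.0107). Slc22a7, another organic anion carrier, had a difference of -1.10 (SE 0.32, limma adjusted p = 0.245).

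By limma the other uptake carriers gave no call, and rank products called Slco1a1, Slco1b2, Slco2a1 and Slc10a2 lower. Slco1a1 was at 7.13 in iso-α-acids replicate 1, against 11.11 to 11.27 in replicates 2 to 5 and 11.03 to 11.66 in control mice, so that its difference was -1.10 (SE 0.80, limma adjusted p = 0.746) with this mouse and -0.29 (SE 0.13, limma adjusted p = 0.456) without it. The bile acid uptake carrier Slc10a1 had a difference of 0.11 (SE 0.10, limma adjusted p = 0.812), which was 0.020 without control replicate 3 and 0.17 without control replicate 2. The basolateral bile acid exporter subunits Slc51a and Slc51b were flat. These solute carriers were named after their values had been seen.

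**Figure D4:**
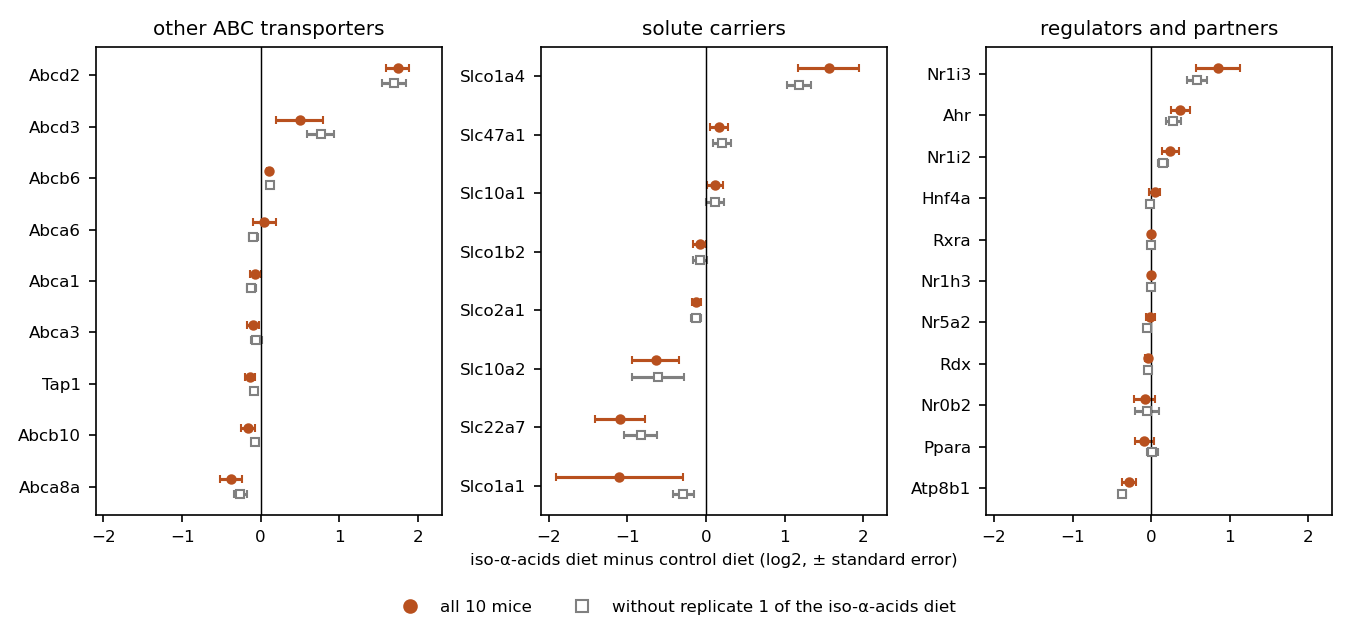
Log2 difference between the iso-α-acids diet and the control diet (horizontal axis, ± standard error from limma) for varying genes. They are other ABC transporters, solute carriers and regulators or membrane partners of exporters. Filled circles hold all 10 mice, and open squares leave out iso-α-acids replicate 1. Abcd2 at 1.74 and Slco1a4 at 1.56 lie farthest to the right, and Slco1a1 lies at -1.10 with all mice and at -0.29 without replicate 1.

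Receptors and partners that govern these exporters were measured for 17 genes, of which 11 varied and limma called 0. Before adjustment, 2 were higher and 2 lower at a p under 0.05, against 22.6% and 14.6% of varying probe sets. Rank products called 3 higher and 2 lower, against 33.5% and 28.4% of varying probe sets. Nr1i3, the constitutive androstane receptor that responds to drugs, was at 11.25, 9.94, 9.87, 10.04 and 9.88 in iso-α-acids mice and at 9.40, 9.30, 9.02, 9.72 and 9.28 in control mice. The groups did not overlap, and replicate 1 was again the highest. Its log2 difference of 0.85 (SE 0.28) did not pass (limma adjusted p = 0.330). The pregnane X receptor Nr1i2 had a difference of 0.24 (SE 0.11, limma adjusted p = 0.529), which was 0.14 (SE 0.063, limma adjusted p = 0.411) without replicate 1. Ppara had one of -0.09 (SE 0.12, limma adjusted p = 0.892), which was 0.016 (SE 0.069) without replicate 1.

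The bile acid receptor Nr1h4, Nfe2l2, which encodes Nrf2, and its repressor Keap1 were flat, so nothing can be read of them, and the oxysterol receptor Nr1h3 varied only just above the limit for flat probe sets. Ahr, the receptor of dioxins, had a difference of 0.37 (SE 0.12, limma adjusted p = 0.325). Atp8b1, a phospholipid flippase of the canalicular membrane, had one of -0.29 (SE 0.087, limma adjusted p = 0.279), which passed without iso-α-acids replicate 1 (-0.365, adjusted p = 0.0109). Ahr and Atp8b1 were named after their values had been seen.

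Over the 10 mice, the named genes whose levels followed Abcc3 most closely were Ces1g, a carboxylesterase, Phb2 and the acyl-CoA dehydrogenase Acadm, with Pearson's r of 0.99, 0.98 and 0.98. For Abcc2 they were Hsd17b11, a dehydrogenase of lipid droplets, Dram2 and Acbd5, with 0.99, 0.98 and 0.97. By limma these 6 genes were all called higher in iso-α-acids mice, with log2 differences of 1.29, 0.19, 0.59, 0.47, 0.0085 and 0.17 in the order named. They were picked for following 2 genes that separated the diets, so these calls were close to fixed by the choice. The correlations are a description over 10 arrays that share the step between the diets.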

How the data were processed

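Liver RNA of 10 mice was measured on 1 array each. Per the paper's methods, the authors quantile normalized the CEL files and summarized them with qFARMS, and the deposited values were read as log2 levels from their range, since the log base is not given in the sources used here. They were used as deposited. Of 22206 probe sets, 19572 carried 1 gene symbol of the platform annotation (19505 genes), and 2634 carried none. All 19572 Entrez identifiers were found in the RefSeq gene table (GRCm38.p6) and 0 symbols changed.

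Groups were compared with limma 3.58.1 (lmFit and eBayes, two-sided, prior degrees of freedom 0.348) in R 4.3.3, with p adjusted over all probe sets by Benjamini-Hochberg. Exact permutation tests took all 252 labelings, correlations were tested by 100000 resamples in SciPy 1.17.1, and rank products took the median over 120 pairings of the arrays. The number of arrays limits the precision. Limma and rank products were also run on simulated data with independent normal noise for each probe set and array. These held no array that stood apart like iso-α-acids replicate 1, so they cannot show how the methods act with such a mouse. The members and lists were chosen with earlier results of these data known. The named genes were the 10 exporters, list genes that passed limma, 7 receptors and regulators fixed by name, and for each exporter that passed, the 3 genes with the highest Pearson's r. The labels do not say more of the mice than that they are biological replicates. Alternatives were leaving out each mouse, quantile normalization or centring again, filters on dim (25%) and on little varying (50%) probe sets, varying probe sets alone, other variance models, array weights, the replicate number as a block, the methods' t-test, rank products, 1 probe set per gene and a threshold of 0.01. Serum, enzyme, RT-PCR and cell line data were not analysed here.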

Additional observations from a re-analysis of the deposited data

Results flagged for a closer look

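In a group of 5, a mouse is listed here when its gap to the nearest other mouse as a share of the range of the group exceeded Dixon's critical value, which chance does for about 1 group in 20. Of 48 groups examined (each diet, for the exporters and the other varying genes looked at singly), 8 did so, all in iso-α-acids mice, and in 7 of them the mouse was replicate 1. Over all varying probe sets, 34.2% did so in iso-α-acids mice, 33.1% with replicate 1 as the mouse that stood apart, and 6.31% in control mice.

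Replicate 1 was the highest for Abcc3 at 12.23 (11.86 to 11.92 in the other 4), for Abcb1a at 7.21 (6.19 to 6.45), for Abcg8 at 11.34 (10.07 to 10.15) and for the receptor Nr1i3 at 11.25 (9.87 to 10.04). It was the lowest for Abcg2 at 9.29 (10.06 to 10.34), for Abcd3 at 9.93 (11.18 to 11.43) and for the uptake carrier Slco1a1 at 7.13 (11.11 to 11.27). For Abcc2, replicate 5 was the lowest at 11.69 (11.81 to 11.85). The cause was not tested.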

How the results depend on the processing

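The exporter differences were recomputed 230 times under the alternatives. Of these values, 212 kept their direction and their side of the threshold, 11 passed where they had not, 2 no longer passed and 5 changed sign. Abcc3 and Abcc2 passed under every alternative other than the replicate number as a block, with adjusted p of 0.00322 to 0.0177 for Abcc3 and 0.00961 to 0.0407 for Abcc2 when 1 mouse was left out. The values that changed sign were those of Abcg5 (-0.325 to 0.081 when 1 mouse was left out, positive without control replicate 3 or iso-α-acids replicate 5), Abcg8 (-0.17 to 0.21, negative without control replicate 5 or iso-α-acids replicate 1, and -0.037 with array weights) and, outside the exporters, Ppara (-0.15 to 0.016, positive without iso-α-acids replicate 1). The cause was not tested. Rank products called 9 exporters, 3 of them basolateral and 6 canalicular, 7 other ABC transporters, 7 solute carriers and 5 regulators or partners, in a setting that called 826 probe sets higher and 708 lower in all. With varying probe sets alone limma called 2 basolateral exporters, 2 other ABC transporters, 2 solute carriers and 1 regulator or partner, and 327 probe sets higher and 168 lower. Array weights and the filter on little varying probe sets each gave 2 basolateral exporters. When 1 mouse was left out the calls ranged from 2 to 3 exporters, from 1 to 2 basolateral ones, and from 0 to 1 for solute carriers and for regulators, the higher number each time without iso-α-acids replicate 1. Over all probe sets this range was 65 to 349 higher and 6 to 147 lower, the highest without that replicate, against 131 and 38. With the replicate number as a block, 0 exporters, 0 basolateral and 0 canalicular ones, and 0 other ABC transporters were called, and 21 probe sets higher and 1 lower in all. The labels do not say whether same-numbered mice were paired. The deviations of same-numbered arrays correlated by -0.205 to 0.233, and 1 of 5 iso-α-acids arrays correlated best with its own number. With so few arrays this cannot exclude a pairing.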
